A study of Mus musculus with 2 samples.

Results

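The genes that present antigen and co-signal to T cells were followed in mouse peritoneal macrophages treated with LPS+CPN+GGOH, set against the same kind of cells treated with LPS+CPN. The list held 38 mouse genes, and each was represented by every probe set whose platform annotation named that gene alone. This gave 77 probe sets of 36 genes, out of 18193 genes on the array. H2-DMb1 and H2-T23 had no probe set that named them alone and are not analysed here. The genes were grouped by role into 11 of the class II pathway, 7 of class I, 8 of peptide loading and 10 of co-signalling.

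Both treatments used macrophages from the peritoneal cavity of C57BL/6J mice, taken 3 days after an injection of thioglycolate, which recruits these cells. The LPS+CPN+GGOH cells received lipopolysaccharide (LPS), an agent the labels call CPN, and GGOH, whose usual full name is geranylgeraniol, an isoprenoid alcohol. The LPS+CPN cells received the first 2 agents alone, so LPS and CPN are shared by both treatments. The labels give no doses or times, no animal numbers and no untreated cells. With 1 array per treatment there is no replicate, and every difference given here describes these 2 arrays, with no test and no p-value.

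Class I molecules, made of a heavy chain and beta2-microglobulin, carry peptides from cytosolic proteins to the cell surface and show them to CD8 T cells. The peptides are pumped into the endoplasmic reticulum by the TAP transporter and fitted onto the heavy chain by a loading complex of chaperones. Class II molecules carry peptides from endocytosed proteins to CD4 T cells, guided by the invariant chain (Cd74), and co-signalling proteins such as CD86 or PD-L1 raise or restrain the T cell's response. In macrophages, interferon-gamma is the best known inducer of both classes, through the regulators NLRC5 for class I and CIITA for class II.

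The value of a gene is the MAS5 signal of its brightest probe set outside the _x_at class, where it has one, a background-corrected intensity on a linear scale that has no absolute unit and is not compared between genes. Signals up to 59.9, the median of all probe sets on both arrays, were treated as not measured. A log2 ratio is the LPS+CPN+GGOH signal over the LPS+CPN signal. As a scale of error, log2 ratios of different probe sets of the same gene had a pooled SD of 0.45, over 4166 genes. Of the 36 genes, 33 were measured on both arrays, Icosl and Tnfsf4 on 1 array only, and Ciita on neither.

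The genes did not move as a block. The TAP genes, Tapbpl, Nlrc5, H2-K1 in its brightest probe set, the PD-L1 gene Cd274 and Icosl had lower signals with GGOH. Cd74, Cd83, Pdia3, Mr1 and H2-Aa in its probe set outside the _x_at class had higher ones. The brighter _x_at probe sets of H2-Aa did not, with log2 ratios of -0.05 and -0.31. At 1.5-fold or more, 7 of 35 measured members were lower (20%) and 5 were higher (14.3%), against 7.85% lower and 12.5% higher among all 11560 measured genes. Of these members, H2-K1 and H2-Aa had probe sets of both signs. With _x_at probe sets left out, 6 of 34 were lower and 5 higher, against 7.82% and 12.5% of all genes. With them used like the others, 7 of 35 were lower and 4 higher, against 8.01% and 12.3%. At 2-fold or more, 1 member was lower (2.86%) and 0 were higher, against 1.66% lower and 5.49% higher among all measured genes. The median log2 ratio of the 35 members was 0.04, beside -0.02 for all measured genes, whose quartiles were -0.28 and 0.29. By role, the median was -0.39 for peptide loading and -0.19 for class I, and 0.12 for class II and 0.07 for co-signalling. Each was smaller in size than the pooled SD between probe sets, 0.45, which describes single probe sets and not medians of genes. The peptide loading median lies between the values of Tapbp (-0.44), whose probe sets disagreed in sign, and Erap1 (-0.34). Over 11 processing settings, the peptide loading median was below 0, and below the median of all genes, in each. It came nearest to 0, at -0.12, with the median over probe sets. The class I median turned positive with quantile-normalized arrays (0.12), with the lowess correction (0.000471) and with macrophage markers set equal (0.01), and the class II (-0.04) and co-signalling (-0.09) medians turned negative with arrays divided by their medians. The class I median was below that of all genes in 9 of the 11 settings, macrophage markers set equal included. It was above it with quantile normalization and lowess. Class II and co-signalling medians were above that of all genes in each of the 11 settings. At the deposited scaling, the lists of other class II pathway genes (-0.20) and other co-signalling genes (-0.23), described later, had medians below it.

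**Figure D1:**
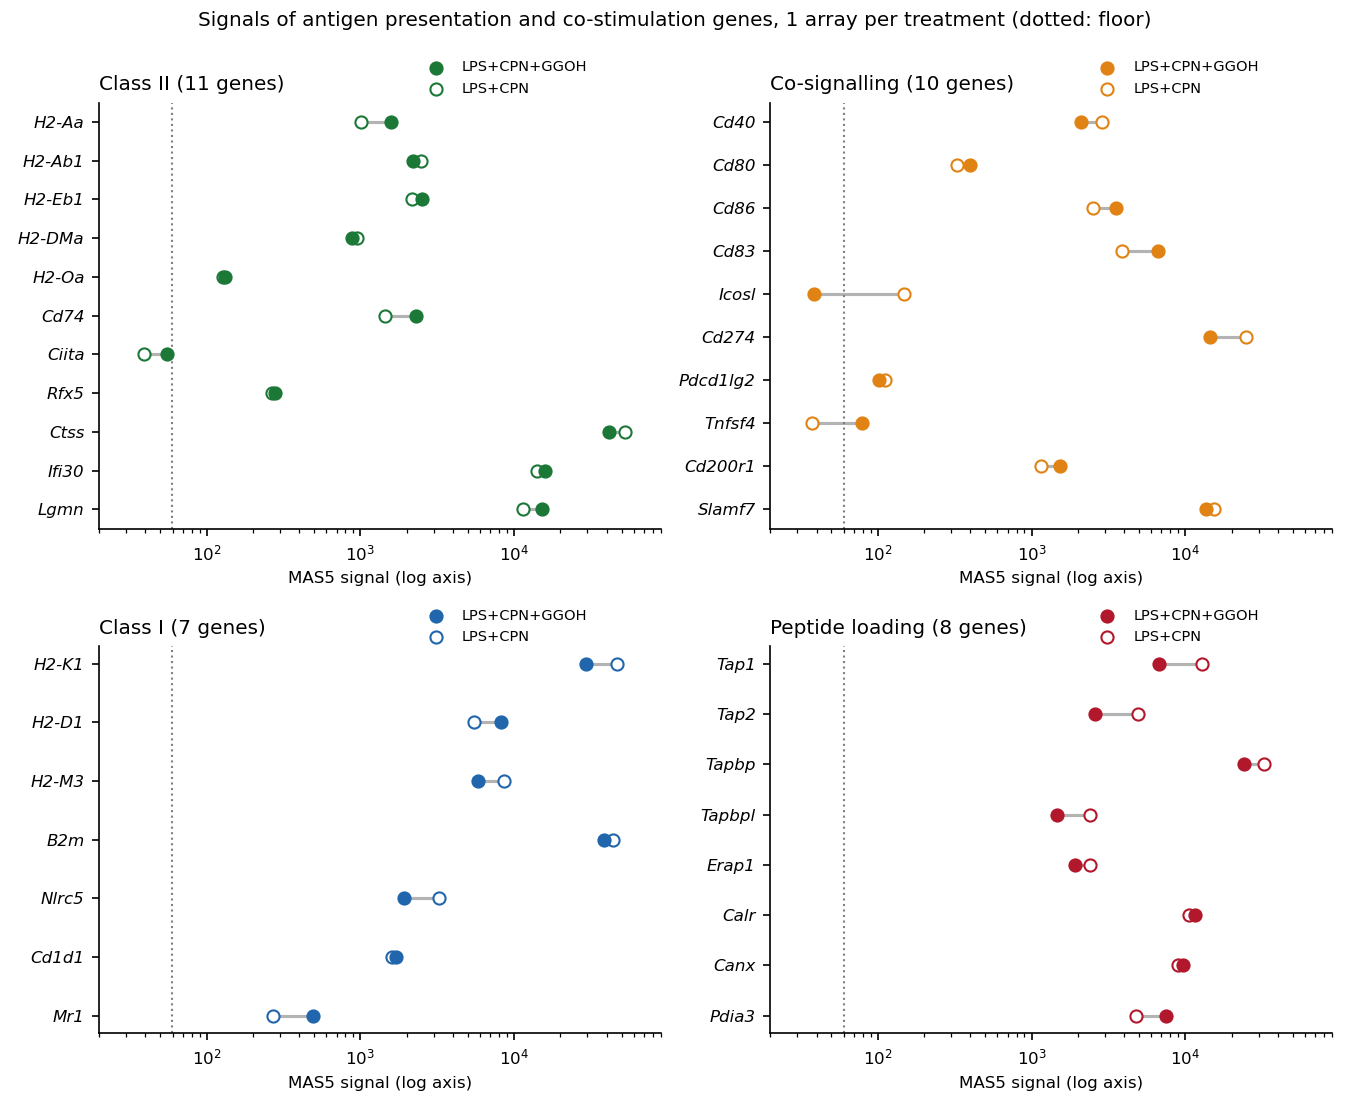
MAS5 signals on a log axis for the 36 member genes in 4 groups by role, with a filled point for the LPS+CPN+GGOH array and an open point for the LPS+CPN array; the dotted line is the floor of 59.9. Tap1, Tap2, Nlrc5 and Cd274 lie to the left with GGOH, Cd83, Cd74 and Mr1 to the right, and both Ciita points are under the floor.

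Of the 8 peptide loading genes, 5 had ratios below 0, against 5945 of all 11560 measured genes. At least 1.5-fold lower were 3, against 7.85% of all measured genes. Tap1, which encodes 1 subunit of the peptide transporter TAP, had a signal of 6759 with LPS+CPN+GGOH and 12800 with LPS+CPN, a log2 ratio of -0.92. Tap2, the other subunit, had 2568 with LPS+CPN+GGOH and 4933 with LPS+CPN, a log2 ratio of -0.94. Both subunits were thus about equally lower, at 1.89-fold and 1.92-fold. Each rests on 1 measured probe set, and the other 3 Tap1 probe sets were at the floor on both arrays. Their ratios ranged from -1.09 to -0.72 for Tap1 and from -1.11 to -0.74 for Tap2 over the processing settings, and neither lost its 1.5-fold difference. With 1 measured probe set each, the changes of floor, the median over probe sets and the handling of _x_at left both ratios unchanged. Only the scalings and the pseudocount moved them.

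Tapbpl encodes TAPBPR, a tapasin-like protein that edits the peptides of class I molecules outside the loading complex. Its brighter probe set had 1466 with LPS+CPN+GGOH and 2404 with LPS+CPN (log2 ratio -0.71), and its dimmer one had 94.1 with LPS+CPN+GGOH and 242 with LPS+CPN (-1.36). The 2 probe sets agreed in direction. Erap1, the aminopeptidase that trims peptides in the endoplasmic reticulum, had 1907 with LPS+CPN+GGOH and 2416 with LPS+CPN (-0.34), within the SD between probe sets, and its other probe set had a log2 ratio of -0.21.

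Tapbp, which encodes tapasin, the bridge between TAP and the class I heavy chain, gave opposite signs. The brighter probe set had 23986 with LPS+CPN+GGOH and 32626 with LPS+CPN (-0.44), and the dimmer had 2318 with LPS+CPN+GGOH and 1617 with LPS+CPN (0.52). No direction can be given for Tapbp.

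The general chaperones of glycoprotein folding, which also sit in the loading complex, had ratios above 0. Pdia3, the thiol oxidoreductase ERp57, had 7540 with LPS+CPN+GGOH and 4756 with LPS+CPN (log2 ratio 0.66, 1.59-fold higher), and its dimmer probe set had a log2 ratio of 0.16. Calr, calreticulin, had 11599 with LPS+CPN+GGOH and 10554 with LPS+CPN, and its 3 probe sets lay between 0.07 and 0.14. Canx, calnexin, had 9726 with LPS+CPN+GGOH and 8952 with LPS+CPN (0.12), with probe sets from -0.49 to 0.41. Calr and Canx were thus near 0 on the log2 scale, and both turned slightly negative (-0.03 and -0.05) after division by the array medians.

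Of the 7 class I genes, 2 were at least 1.5-fold lower and 1 was at least 1.5-fold higher, against 7.85% and 12.5% of all measured genes. Nlrc5, the transactivator of class I genes, had 1921 with LPS+CPN+GGOH and 3248 with LPS+CPN, a log2 ratio of -0.76 (1.69-fold lower). H2-M3, a class I molecule that presents N-formylated bacterial peptides, had 5845 with LPS+CPN+GGOH and 8651 with LPS+CPN (-0.57, 1.48-fold lower). Mr1, which presents vitamin B metabolites to MAIT cells, was higher, at 489 with LPS+CPN+GGOH and 272 with LPS+CPN (0.85, 1.80-fold). Its dimmer probe set had 272 with LPS+CPN+GGOH and 229 with LPS+CPN (0.25). Cd1d1, which presents lipids to NKT cells, had 1709 with LPS+CPN+GGOH and 1613 with LPS+CPN (0.08), with -0.34 for its other probe set.

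B2m, beta2-microglobulin, had 38431 with LPS+CPN+GGOH and 43961 with LPS+CPN (-0.19), and 28297 with LPS+CPN+GGOH and 40156 with LPS+CPN (-0.50) for its other probe set. The heavy chain genes H2-K1 and H2-D1 are so alike in sequence that most of their probe sets are of the _x_at class, which can bind several related transcripts. All 4 H2-K1 probe sets are of this class. The brightest had 29239 with LPS+CPN+GGOH and 46521 with LPS+CPN (-0.67, 1.59-fold lower), others had -0.28 and -0.18, and the dimmest had 3999 with LPS+CPN+GGOH and 2680 with LPS+CPN (0.58). The value used for H2-D1 came from its 1 measured probe set outside that class, with 8254 with LPS+CPN+GGOH and 5509 with LPS+CPN (0.58). Of all 8 measured H2-D1 probe sets, 6 were higher and 2 lower. The 2 lower ones were the brightest, at 34003 with LPS+CPN+GGOH and 44230 with LPS+CPN (-0.38) and at 31621 with LPS+CPN+GGOH and 44953 with LPS+CPN (-0.51). With _x_at probe sets used like the others, the log2 ratio of H2-D1 was -0.38. The direction for classical heavy chains therefore depended on the probe set, and the signals cannot be assigned to H2-K1 or H2-D1 apart.

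**Figure D2:**
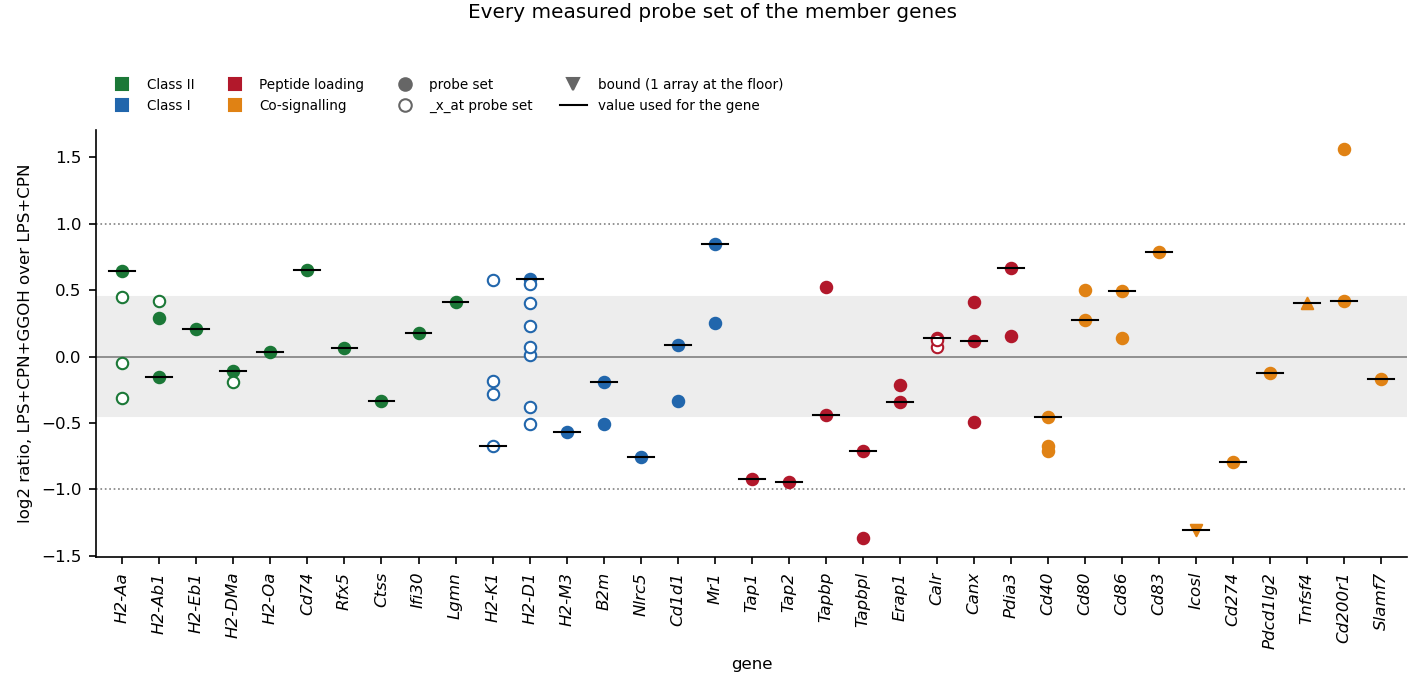
The log2 ratio of LPS+CPN+GGOH over LPS+CPN for each of the 67 measured probe sets, by gene and coloured by role; open points are _x_at probe sets, triangles are bounds with 1 array at the floor, and the short black line is the value used for the gene. The grey band is 0 plus or minus the SD between probe sets (0.45) and the dotted lines mark 2-fold. H2-Aa, H2-Ab1, H2-K1, H2-D1, Cd1d1, Tapbp and Canx span 0, while Cd40 and Tapbpl lie below it with each probe set.

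The promoter windows of class I genes are shown because H2-K1 and H2-D1, whose probe sets overlap, also share their proximal promoter elements, and because B2m and Tap1 take part in the same pathway. The windows run from 250 bases before the RefSeq start to 50 after it (RefSeq, build GRCm38.p6), 5′ to 3′ on the gene's strand. Capitals mark matches to 4 patterns of letters searched on both strands (ATTGG is CCAAT on the other strand): GAAA, any 2 bases, GAAA (the interferon response type), TTC, any 3 bases, GAA (the GAS type), GGGA, any 4 bases, CC (the NF-kB type) and CCAAT. The H2-K1 window, at the first of 2 listed starts, is chr17:34000298-34000597, minus strand, and that of H2-D1 is chr17:35262844-35263143, plus strand. The B2m window is chr2:122147437-122147736, plus strand, and the Tap1 window is chr17:34187306-34187605, plus strand. The window of the class II gene H2-Eb1, chr17:34305617-34305916, plus strand, is printed as an example and does not stand for its group.
H2-K1: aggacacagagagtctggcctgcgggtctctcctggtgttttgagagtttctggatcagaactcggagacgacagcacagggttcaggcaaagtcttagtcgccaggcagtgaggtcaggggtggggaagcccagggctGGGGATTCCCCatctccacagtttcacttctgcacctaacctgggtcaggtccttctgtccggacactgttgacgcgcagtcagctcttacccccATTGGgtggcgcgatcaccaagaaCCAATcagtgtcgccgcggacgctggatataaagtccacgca
H2-D1: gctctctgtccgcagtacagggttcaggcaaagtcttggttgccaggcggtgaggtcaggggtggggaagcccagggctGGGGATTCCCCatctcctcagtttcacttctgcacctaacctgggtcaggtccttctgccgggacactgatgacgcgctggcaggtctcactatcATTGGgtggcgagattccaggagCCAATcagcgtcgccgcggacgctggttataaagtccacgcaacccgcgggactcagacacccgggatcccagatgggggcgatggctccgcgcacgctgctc
B2m: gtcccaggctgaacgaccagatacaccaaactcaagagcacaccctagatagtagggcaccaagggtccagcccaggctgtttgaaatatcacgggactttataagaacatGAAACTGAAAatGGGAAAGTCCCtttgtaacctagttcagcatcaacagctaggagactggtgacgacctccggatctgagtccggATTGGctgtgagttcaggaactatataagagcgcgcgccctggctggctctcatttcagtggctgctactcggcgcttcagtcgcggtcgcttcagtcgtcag
Tap1: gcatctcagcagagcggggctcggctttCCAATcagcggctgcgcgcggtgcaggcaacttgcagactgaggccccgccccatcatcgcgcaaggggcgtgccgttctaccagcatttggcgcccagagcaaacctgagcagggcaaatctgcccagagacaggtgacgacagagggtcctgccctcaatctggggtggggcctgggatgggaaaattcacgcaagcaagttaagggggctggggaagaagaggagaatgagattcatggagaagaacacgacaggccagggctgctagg
H2-Eb1: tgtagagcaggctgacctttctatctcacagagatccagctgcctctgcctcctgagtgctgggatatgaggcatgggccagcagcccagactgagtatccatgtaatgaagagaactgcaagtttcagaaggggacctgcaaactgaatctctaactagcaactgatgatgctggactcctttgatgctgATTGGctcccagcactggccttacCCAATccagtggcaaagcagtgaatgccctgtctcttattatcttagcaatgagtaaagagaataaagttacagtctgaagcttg

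H2-K1 and H2-D1 hold the same NF-kB-type letters, GGGGATTCCCC, which match the pattern on both strands at overlapping positions, followed in each by ATTGG and CCAAT. B2m holds the interferon response letters GAAACTGAAA, beginning 139 bases before the start, next to an NF-kB-type match. H2-Eb1 holds ATTGG 59 bases before the start, the letters of the Y box that class II promoters carry, and no match to the interferon-type or NF-kB-type patterns. Other genes of the class II group did hold such matches. H2-Aa, H2-Oa, Rfx5 and Lgmn held the NF-kB-type pattern, and Ctss the interferon response pattern. The Tap1 window holds CCAAT and no other match. RefSeq windows were at hand for 26 of the 38 genes. A gene was counted when any of its windows held the pattern, for the members and for all 27025 genes with a window. The interferon response pattern was in 4 of the 26 (15.4%; Ctss, H2-T23, B2m and Erap1), against 3.99% of all genes with a window. The GAS-type pattern was in 1 (3.85%; H2-M3), against 9.55%. The NF-kB-type pattern was in 12 (46.2%), against 22.9%, and CCAAT in 18 (69.2%), against 41.1%. These are matches of letters, not measured binding.

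Of the 10 measured class II genes, 7 had ratios above 0, against 5615 of all 11560 measured genes. By 1.5-fold or more, 2 were higher and 0 lower. Among all measured genes, 12.5% were higher and 7.85% lower by that much. Cd74, the invariant chain, had 2288 with LPS+CPN+GGOH and 1454 with LPS+CPN, a log2 ratio of 0.65 (1.57-fold higher) from its 1 probe set. H2-Aa, the alpha chain of the I-A molecule, had 1571 with LPS+CPN+GGOH and 1003 with LPS+CPN (0.65, 1.57-fold) on the probe set used. Its brighter _x_at probe sets did not show this, with 4930 with LPS+CPN+GGOH and 5101 with LPS+CPN (-0.05) and 3285 with LPS+CPN+GGOH and 4082 with LPS+CPN (-0.31). H2-Ab1, the I-A beta chain, had 2208 with LPS+CPN+GGOH and 2462 with LPS+CPN (-0.16), and 0.29 and 0.42 on its 2 other probe sets. H2-Eb1, the I-E beta chain, had 2498 with LPS+CPN+GGOH and 2169 with LPS+CPN (0.20). C57BL/6 mice do not make the I-E alpha chain, so this gene gives no surface I-E in them. The chains of the I-A molecule thus had no direction shared by their probe sets, and Cd74, with 1 probe set, has no such check.

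The peptide editors of class II varied little. H2-DMa, a chain of the DM molecule that loads peptides, had 877 with LPS+CPN+GGOH and 945 with LPS+CPN (-0.11), and H2-Oa, a chain of its inhibitor DO, had 131 with LPS+CPN+GGOH and 128 with LPS+CPN (0.04). Rfx5, a DNA-binding subunit of the factor that occupies the X box of class II promoters, had 279 with LPS+CPN+GGOH and 266 with LPS+CPN (0.07). Ciita, the class II transactivator, was at or under the floor in all 3 probe sets, the brightest at 55.3 with LPS+CPN+GGOH and 39.02 with LPS+CPN. No ratio is given for it.

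The endosomal enzymes were bright on both arrays. Ctss, cathepsin S, which degrades the invariant chain, had 41662 with LPS+CPN+GGOH and 52583 with LPS+CPN (-0.34). Ifi30, the thiol reductase GILT, had 15943 with LPS+CPN+GGOH and 14091 with LPS+CPN (0.18). Lgmn, the asparagine endopeptidase legumain, had 15242 with LPS+CPN+GGOH and 11475 with LPS+CPN (0.41). Each lay within the SD between probe sets.

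Across the whole array, ratios were lower at higher signals, and this touches the brightest members. Genes with a geometric mean signal above 10000 had a median log2 ratio of -0.19 (416 genes), and those from 59.9 to 300 had one of 0.11 (3363 genes). The 9 members above 10000 had a median of -0.19, the same as all genes in that range, with 6 of 9 below 0. The upper quartile of all 416 genes in that range was also below 0, at -0.002. The lowess setting removes this trend, and under it B2m had a log2 ratio of 0.000471 and Ctss one of -0.13. H2-K1 (-0.48), Tap1 (-0.81), Tap2 (-0.88), Nlrc5 (-0.72) and Cd274 (-0.64) had ratios beyond that SD under it as well. The highest signal on either array was 47867 with LPS+CPN+GGOH and 56591 with LPS+CPN, and whether the signals of Ctss, B2m and H2-K1 were compressed near the top was not tested.

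**Figure D3:**
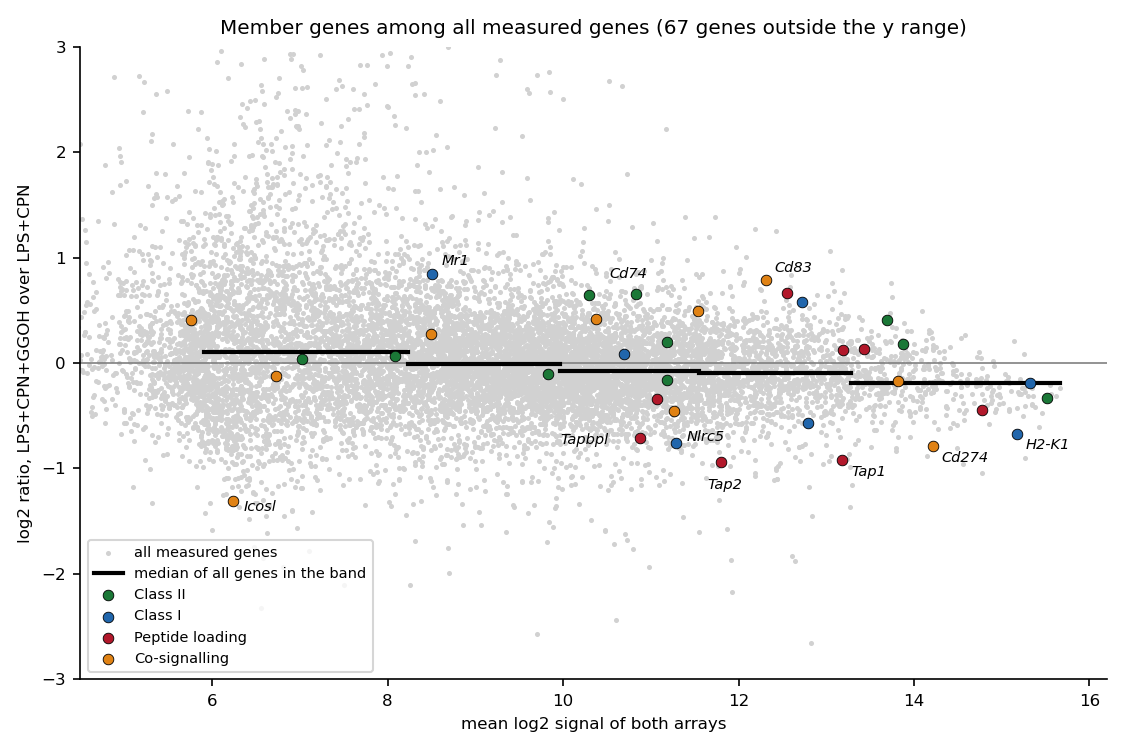
The log2 ratio of LPS+CPN+GGOH over LPS+CPN against the mean log2 signal of both arrays, with all measured genes in grey (bounds included) and the 35 measured members coloured by role; black lines are medians of all genes within 5 signal bands, which go from 0.11 in the lowest to -0.19 in the highest, and 67 grey points lie outside the y range. Tap1, Tap2, Nlrc5 and Cd274 lie below the black lines and Cd83, Cd74 and Mr1 above them.

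Of the 10 co-signalling genes, 5 had ratios below 0 and 5 above, beside 5945 below and 5615 above among all 11560 measured genes. At 1.5-fold or more, 2 were lower and 1 was higher. The shares over all measured genes were 7.85% lower and 12.5% higher. Cd274, which encodes the inhibitory ligand PD-L1, had 14429 with LPS+CPN+GGOH and 24987 with LPS+CPN, a log2 ratio of -0.79 (1.73-fold lower). Pdcd1lg2, the related ligand PD-L2, had 102 with LPS+CPN+GGOH and 111 with LPS+CPN (-0.13). Icosl, the ligand of the T cell receptor ICOS, had 38.3 with LPS+CPN+GGOH, under the floor, and 148 with LPS+CPN, and so was at least 2.47-fold lower. It was the 1 member past 2-fold, and its signal was low on both arrays. Cd40, the receptor for the T cell's CD40 ligand, was lower in all 3 probe sets, with log2 ratios of -0.71, -0.67 and -0.46, and had 2103 with LPS+CPN+GGOH and 2884 with LPS+CPN in the brightest.

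Of the other co-signalling genes, Cd83 passed 1.5-fold. Cd83, a surface protein of activated antigen-presenting cells that keeps class II and CD86 at the surface, had 6659 with LPS+CPN+GGOH and 3863 with LPS+CPN (0.79, 1.72-fold higher). It stayed at least 1.5-fold higher in all 11 settings, of which only the scalings and the pseudocount moved its ratio. Cd86, a ligand of CD28, had 3523 with LPS+CPN+GGOH and 2498 with LPS+CPN (0.50), and its other probe set had a ratio of 0.14. Cd80, the other CD28 ligand, had 397 with LPS+CPN+GGOH and 329 with LPS+CPN (0.27), with 0.50 for its other measured probe set.

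Cd200r1, an inhibitory receptor of myeloid cells, had 1540 with LPS+CPN+GGOH and 1155 with LPS+CPN (0.42) in its brighter probe set. Its dimmer probe set had 503 with LPS+CPN+GGOH and 171 with LPS+CPN (1.56), so the size of its difference depended on the probe set. Tnfsf4, OX40 ligand, had 79.4 with LPS+CPN+GGOH and 37.1, under the floor, with LPS+CPN, and so was at least 1.32-fold higher. Slamf7, a SLAM-family receptor, had 13626 with LPS+CPN+GGOH and 15361 with LPS+CPN (-0.17).

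Of the 36 genes, 18 had more than 1 measured probe set, and these agreed in sign for 11 and disagreed for 7. The 11 were H2-DMa, B2m, Mr1, Tapbpl, Erap1, Calr, Pdia3, Cd40, Cd80, Cd86 and Cd200r1. The 7 were H2-Aa, H2-Ab1, H2-K1, H2-D1, Cd1d1, Tapbp and Canx. Another 17 rested on 1 measured probe set, Tap1, Tap2, Nlrc5, Cd274, Cd74 and Cd83 among them, and have no check within the arrays.

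Several members lie side by side in the mouse major histocompatibility complex on chromosome 17. In RefSeq gene order, Tap1 (log2 ratio -0.92) and Tap2 (-0.94) lie next to the immunoproteasome genes Psmb9 (-0.45) and Psmb8 (-0.27). The next members are H2-Ab1 (-0.16), H2-Aa (0.65) and H2-Eb1 (0.20). The TAP genes thus had lower ratios than their class II neighbours in the same stretch of the chromosome.

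Other genes of the pathway were taken from lists written by function. Their counts stand beside 12.5% higher and 7.85% lower by 1.5-fold or more among all measured genes. Of 12 measured genes of the immunoproteasome and of cytosolic and reticulum processing, 1 was at least 1.5-fold lower and 0 were higher (median -0.22). This was Psmb10, a catalytic subunit of the immunoproteasome, with 7904 with LPS+CPN+GGOH and 13473 with LPS+CPN (-0.77). The chaperone gene Hsp90b1 had 12354 with LPS+CPN+GGOH and 9122 with LPS+CPN (0.44). Of 17 other class II pathway genes, 2 were at least 1.5-fold lower and 1 was higher (median -0.20). Marchf1, a ubiquitin ligase that removes class II molecules and CD86 from the cell surface, had 824 with LPS+CPN+GGOH and 2472 with LPS+CPN, 3.00-fold lower, with log2 ratios of -1.58 in both probe sets. Rfxap, a partner of RFX5, had a log2 ratio of -0.61, and the DM beta chain gene H2-DMb2 had one of 0.61. Of 4 measured genes on the list of other class I genes, 0 passed 1.5-fold in either direction. They were H2-T24 (0.54), the iron regulator gene Hfe (0.53), the Fc receptor gene Fcgrt (0.16) and H2-Ke6 (-0.22), which lies in the complex but encodes a steroid dehydrogenase and no class I molecule.

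Among 17 other co-signalling genes, 4 were at least 1.5-fold higher and 3 lower (median -0.23). For this list and the next, the shares over all measured genes were 12.5% higher and 7.85% lower. Tnfsf9, 4-1BB ligand, had 473 with LPS+CPN+GGOH and 1266 with LPS+CPN (2.67-fold lower), and Slamf1 had 158 with LPS+CPN+GGOH and 329 with LPS+CPN (2.08-fold lower). Nectin2, a ligand of DNAM-1 and TIGIT that also joins epithelial and fibroblast cells, had 640 with LPS+CPN+GGOH and 136 with LPS+CPN (4.70-fold higher). Among 9 interferon factors and receptors, 3 were at least 1.5-fold lower and 0 higher (median 0.01). They were Irf1, a factor that acts on the promoters of class I pathway genes, with 2904 with LPS+CPN+GGOH and 18294 with LPS+CPN, Irf2 (-0.83) and Irf8 (-0.75). The interferon-gamma receptor genes Ifngr1 (0.53) and Ifngr2 (0.38) had ratios above 0.

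**Figure D4:**
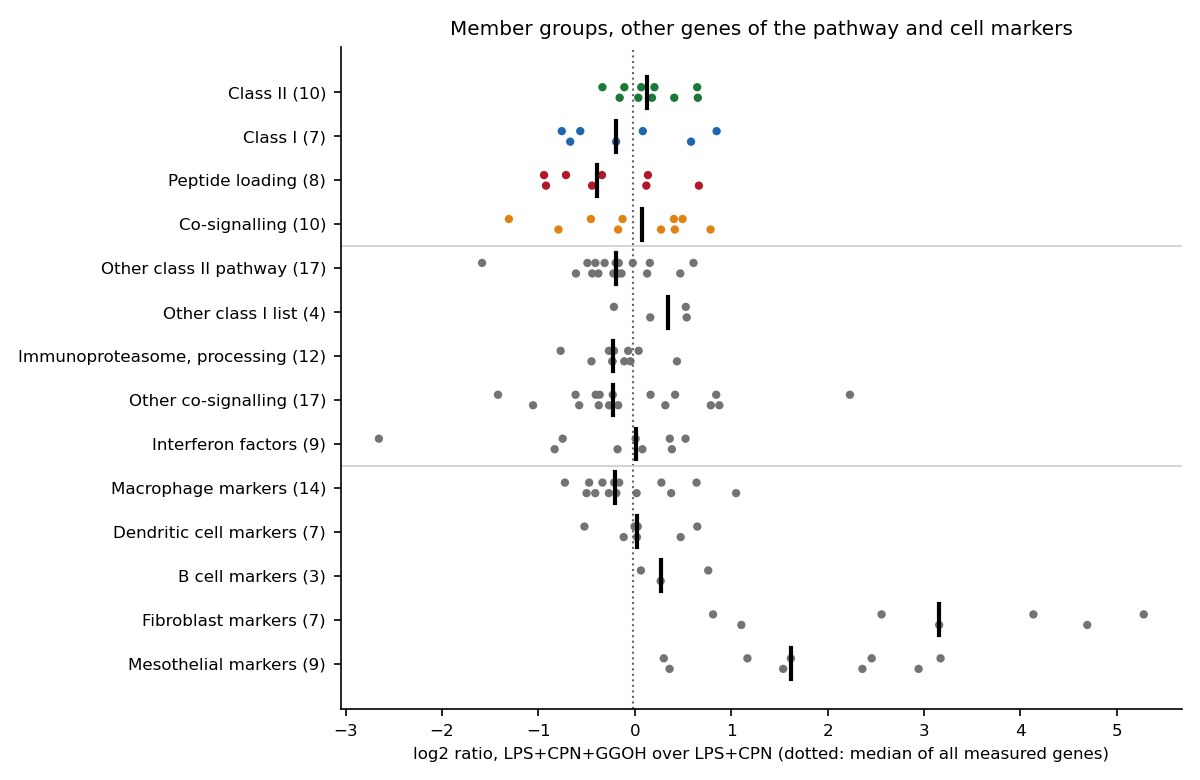
The log2 ratio of LPS+CPN+GGOH over LPS+CPN for each measured gene (points) and the list median (black bars), for the 4 member groups, for other genes of the pathway and for cell markers, with the number measured in brackets and the median of all genes as a dotted line; bounds are plotted at the bound. Peptide loading has a median of -0.39, and the fibroblast (3.16) and mesothelial (1.62) medians lie far to the right.

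The cells' labels were checked with marker lists. All 14 macrophage markers were measured on both arrays, with summed signals of 187634 with LPS+CPN+GGOH and 207899 with LPS+CPN and a median log2 ratio of -0.20, Itgam (1.05) being the 1 past 2-fold. All 7 measured fibroblast markers were at least 1.5-fold higher, against 12.5% of all measured genes. The list had summed signals of 19490 with LPS+CPN+GGOH and 1032 with LPS+CPN. Col1a1, Col3a1, Pdgfra, Pdgfrb and Thy1 were under the floor with LPS+CPN. Being measured on the other array alone, they have bounds and could only be higher. Measured on both arrays, Col1a2 had 11165 with LPS+CPN+GGOH and 287 with LPS+CPN, and Dcn had 5043 and 565. Lum and Postn were at the floor on both arrays. Fibroblast markers past 2-fold were Col1a1, Col1a2, Col3a1, Dcn, Pdgfra and Pdgfrb. Of 9 mesothelial markers, 7 were higher by 1.5-fold or more, with sums of 2543 with LPS+CPN+GGOH and 312 with LPS+CPN. Wt1, Msln, Upk1b, Krt19, Krt8, Krt18 and Lrrn4 were past 2-fold. All mesothelial markers but Krt8 were under the floor with LPS+CPN, so they too have bounds and could only be higher. Krt8 had 723 with LPS+CPN+GGOH and 93.8 with LPS+CPN. Dendritic cells and B cells carry much class II. Of 12 dendritic cell markers, 7 were above the floor on at least 1 array, with sums of 1637 with LPS+CPN+GGOH and 1925 with LPS+CPN, and Flt3 and Xcr1 were at the floor on both. Itgax, which macrophages also express, made up most of these sums, with 914 with LPS+CPN+GGOH and 1313 with LPS+CPN (-0.52), and Zbtb46 had a log2 ratio of 0.65. Of 11 B cell markers, 8 were at the floor on both arrays, Cd79a, Ms4a1 and Pax5 included, and sums were 1158 with LPS+CPN+GGOH and 1028 with LPS+CPN. Cd22 made up most of these, with 829 with LPS+CPN+GGOH and 688 with LPS+CPN (0.27). All 8 T and NK cell markers were at the floor on both arrays. For neutrophils, mast cells and eosinophils, 8 of 9 markers were at the floor on both arrays, and S100a8 had a log2 ratio of -0.95. The part of the fibroblast and mesothelial signal in the class I, chaperone and co-signalling values was not tested, and fewer cells of a type cannot be told apart from less RNA per cell. The RNA ends also differed between the arrays, with 3′ over 5′ signal ratios of 1.24 with LPS+CPN+GGOH and 2.44 with LPS+CPN for Actb, and 0.956 with LPS+CPN+GGOH and 1.98 with LPS+CPN for Gapdh. Their part in the disagreement between probe sets of Tapbp, H2-K1 or H2-D1 was not tested.

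The counts of members depended on how the arrays were scaled. Dividing each array by its median moved the median of all genes to -0.17, and setting the macrophage markers to equal levels moved it to 0.18. Of all genes past 1.5-fold, 61.5% were higher at the deposited scaling (1448 higher and 907 lower). This share was 38.4% (1058 higher and 1699 lower) when each array was divided by its median. With quantile normalization it was 44.4% (1082 higher and 1354 lower), and with macrophage markers set equal 82.8% (2238 higher and 464 lower). Tap1, Tap2 and Cd274 were at least 1.5-fold lower and Cd83 at least 1.5-fold higher in all 11 settings. Nlrc5, Tapbpl and Icosl were at least 1.5-fold lower in 10 settings each, Cd74 was at least 1.5-fold higher in 10, and H2-Aa, Mr1 and Pdia3 in 9 each. For H2-Aa, the setting that drew on its other probe sets, with _x_at used like the others, gave -0.05. H2-K1 was at least 1.5-fold lower in 6 of the 10 settings that measured it. Nlrc5 and Tapbpl fell short only under equal macrophage markers, and Icosl was not measured with the floor at the 75th percentile. Tap1, Tap2, Cd274, Cd83, Nlrc5 and Cd74 each rest on 1 measured probe set. The floors, the median over probe sets and the handling of _x_at left their ratios unchanged, so only the scalings and the pseudocount were checks on them.

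**Figure D5:**
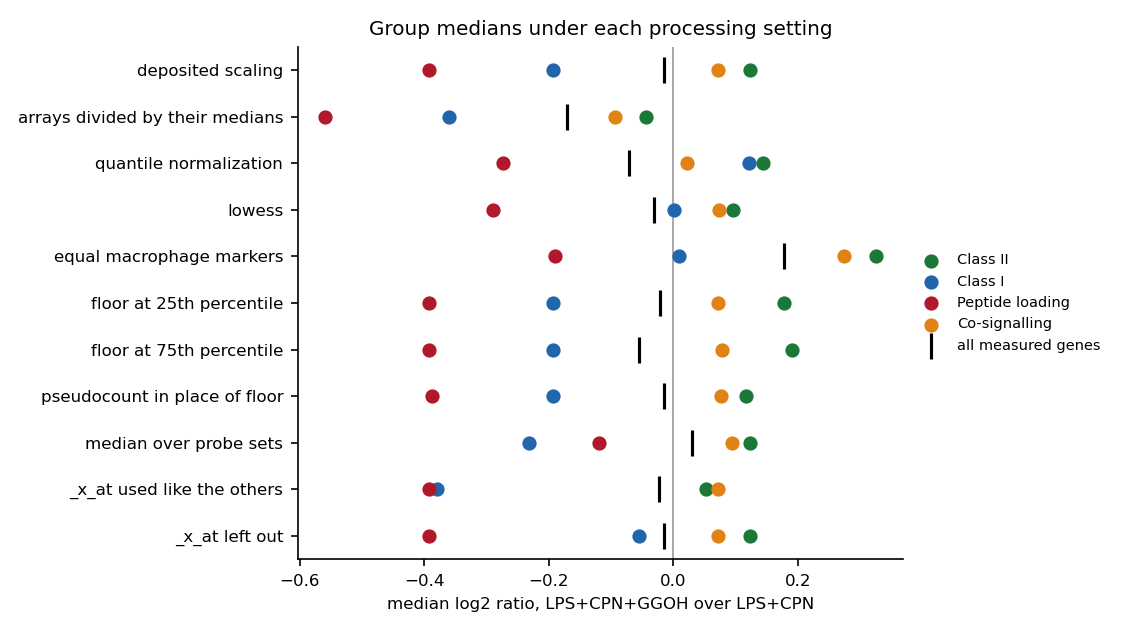
Median log2 ratio of LPS+CPN+GGOH over LPS+CPN for the 4 member groups (coloured points) and for all measured genes (black bars) at the deposited scaling and under 10 alternatives. The peptide loading median lies between -0.56 and -0.12 and left of the black bar in each row, and the class II median lies between -0.04 and 0.33 and right of it.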

How the data were processed

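Total RNA of 2 samples, 1 per treatment, was labelled with biotin and hybridised, per the labels' protocols. The deposited values are 1 signal intensity per probe set and array, made with MAS5 per the submitters' processing notes; no version of it is named there. The mean of the central 96% of signals was 500.004 on both arrays, so the deposited intensities were already scaled. The number of arrays limits the precision, and single low signals cannot be told from background.

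Of 45037 non-control probe sets, 34945 named 1 gene in the platform annotation, 932 several and 9160 none; probe sets with several or no gene were left out. Each of 18193 genes was represented by the probe set brightest on average (log2), and _x_at probe sets served only the 100 genes with no other. Signals were set to a floor at the 50th percentile (59.9), and log2 ratios were taken as LPS+CPN+GGOH over LPS+CPN. A gene at the floor on 1 array has only a bound. All 38 members are named; genes of other lists are named when at least 2-fold apart, or, in a list with none, from up to 4 with the largest ratios, and a few more where a count is small, chosen after their values were seen. The members and lists were chosen with earlier results of these data known. Scalings, floors, a pseudocount, the median over probe sets and the handling of _x_at were varied (lowess span 0.4). The steps were run on simulated data with effects set only in genes well above the floor. The simulation had less noise than the SD between probe sets and no trend of ratio with signal. Python 3.11.15, pandas 2.3.3 and statsmodels 0.14.6 were used.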

Additional observations from a re-analysis of the deposited data

How the results depend on the processing

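With 1 array per treatment no replicate could be left out. No paired analysis was possible because each treatment has 1 array and no test was made. Of 344 values of single members under 10 alternatives, 337 moved by less than the SD between probe sets. For members with 1 measured probe set, the median over probe sets and the handling of _x_at left the value unchanged. H2-Aa had a ratio of -0.049 with _x_at probe sets used like the others, against 0.65. The number of members at least 1.5-fold higher was 2 after division by array medians and 9 under equal macrophage markers, against 5 at the deposited scaling. The number at least 1.5-fold lower was 4 under equal macrophage markers and 10 after division by array medians, against 7. The shares of all measured genes moved too. After division by array medians 9.13% were higher and 14.7% lower, and under equal macrophage markers 19.3% and 4.01%. At the deposited scaling they were 12.5% and 7.85%. Members at least 2-fold lower numbered 3 after division by array medians, 2 with the median over probe sets and 0 with the higher floor (75th percentile), against 1. Over all measured genes these were 335 of 11589, 150 of 11617 and 88 of 7079, against 192 of 11560. The number at least 2-fold higher was 1 under equal macrophage markers (Mr1) and 1 with the lower floor, at the 25th percentile (Tnfsf4), against 0. Over all measured genes these were 877 of 11579 and 1666 of 15990, against 635 of 11560. A higher floor leaves fewer genes measured, 30 members in place of 35; the cause of the other moves was not tested. Low signals limit Icosl, Tnfsf4 and Ciita, which have a bound or no value.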
